A study of Rattus norvegicus with 60 samples.

Results

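The star miRs are the passenger strands of microRNA (miR) precursors, which older miR names mark with an asterisk. On the arrays analysed here they were all rat miRs whose name ends in an asterisk, 58 of the 350 rat miRs measured, and 51 of the 58 could be set against a guide strand carrying the same name without the asterisk. The study compared retinas of Long Evans hooded male rats after ischemia/reperfusion (IR) with retinas of sham control rats at 5 time points from 0 h over 2 h, 24 h and 48 h to 7d. Rats of both treatments weighed 250 to 300 g, and their age is not given in the labels. In the IR rats the intraocular pressure of an eye was held at 110 mmHg for 60 min and then released. The sham control rats went through the same procedure without the raised pressure. Each of the 10 groups held 6 rats with 1 array each, and 100 ng of total RNA from whole retina was labeled with Cy3 for each array, which gave 30 IR and 30 sham control arrays. The retina holds all its cell types together, so fewer cells of a type and less RNA per cell cannot be told apart.

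A miR precursor is a hairpin that the enzyme Dicer cuts to a short duplex. An Argonaute protein keeps the guide strand, which pairs with target mRNAs mainly through its seed near the 5′ end, while the passenger strand is usually degraded. Some passenger strands are kept as well and carry a seed of their own, so a pair cut from the same hairpin can differ in both its amount and its targets.

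Mature sequences were found in RefSeq (GRCr8) for 52 of the 58 star miRs. Those that carry the results are printed 5′ to 3′ with the seed, bases 2 to 8, in capitals. Of the 5 strands called higher in IR, 4 are shown first.
let-7d*: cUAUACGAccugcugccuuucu
miR-99b*: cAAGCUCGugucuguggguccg
miR-338*: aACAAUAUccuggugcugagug
miR-125b*: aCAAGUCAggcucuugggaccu

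Among the strands called lower in IR, these had a sequence to show.
miR-30a*: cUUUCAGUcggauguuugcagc
miR-181a*: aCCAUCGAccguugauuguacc
miR-136*: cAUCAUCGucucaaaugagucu

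The strands detected on nearly all arrays follow, each with its guide strand beneath it, because their star to guide difference was compared within arrays.
miR-9*: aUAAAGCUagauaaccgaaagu
miR-9: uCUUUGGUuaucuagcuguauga
miR-129*: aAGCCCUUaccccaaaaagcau
miR-129: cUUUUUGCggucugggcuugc
miR-29c*: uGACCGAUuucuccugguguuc
miR-29c: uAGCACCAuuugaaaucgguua
miR-140*: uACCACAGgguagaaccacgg
miR-140: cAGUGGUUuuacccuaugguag
The guide strand of miR-338* is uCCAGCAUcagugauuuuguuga and that of let-7d* is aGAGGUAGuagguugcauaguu, so neither pair shares a seed.

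Seeds were shared between star miRs in 3 cases among the matched strands. The seed AAGCUCG was common to miR-99b* above and to miR-99a* (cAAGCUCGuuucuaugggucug), and UGGGAGA to miR-30c-1* (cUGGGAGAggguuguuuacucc) and miR-30c-2* (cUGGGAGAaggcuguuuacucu), while miR-24-1* and miR-24-2* shared the seed UGCCUAC. The array annotation placed the target of the let-7d* probes at chr17:22121965-22121982 on the plus strand of build rn4, that of miR-99b* at chr1:56487020-56487034 (plus), that of miR-338* at chr10:109427031-109427045 (minus), that of miR-129* at chr3:78648946-78648963 (minus) and that of miR-29c* at chr13:110968064-110968084 (plus). By the spacing of their strands these 5 were matched to the RefSeq miR genes Mirlet7d, Mir99b, Mir338, Mir129-2 and Mir29c.

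The arrays differed in brightness in the way the groups did, which bears on every star miR because most of them lie near the detection limit. Brightness stands for the log2 75th percentile of the total signals of 57 miRs, those that all 60 arrays detected. Mean brightness was 9.34 in IR against 10.40 in sham control at 0 h, 9.84 against 9.80 at 2 h, 8.27 against 10.42 at 24 h, 9.26 against 10.45 at 48 h and 8.16 against 10.74 at 7d (exact two-sided permutation tests over 6 against 6 arrays, adjusted p = 0.0379, 0.894, 0.00541, 0.0108 and 0.00541). At 7d the dimmest sham control array was 1.92 brighter than the brightest IR array. No slide held both treatments of any time point, so slide and treatment cannot be told apart there, while each of the 3 scans held as many IR as sham control arrays. The retinal markers miR-182, miR-183, miR-96, miR-124, miR-9, miR-204 and miR-211 were detected on 60 arrays each, and the neuronal marker miR-128 on 57. Among markers of other cells, miR-206 was detected on 57 arrays, miR-223 on 16, miR-1 on 11, miR-133b on 7, miR-451 on 1 and miR-144, miR-142-3p, miR-142-5p and miR-133a on none. The log2 sum of the 5 blood markers ranged from 4.95 to 7.04 in IR and from 4.95 to 5.63 in sham control, and that of the 4 muscle markers from 6.50 to 9.32 and from 4.63 to 7.86, and their part in the star results was not tested.

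Of the 58 star miRs, 33 were seen on 1 array or more and 25 on none. Only miR-9*, miR-129* and miR-29c* were detected on all 60 arrays, followed by miR-338* on 57 and miR-140* on 54. From there detection fell off without a clear gap. Between 31 and 43 arrays detected miR-181a* (43), miR-30a* (41), let-7d* (40), miR-7a* (38), miR-125b* (37), miR-30e* (37), miR-124* (34), miR-99b* (32) and miR-378* (31). Between 10 and 29 detected miR-872* (29), let-7b* and miR-30c-2* (26 each), miR-204* (25), miR-99a* (23), miR-543* (22), miR-136* (21), miR-30c-1* (14), miR-29b-1* (11) and miR-330* (10), and the remaining 9 were detected on 1 to 9 arrays.

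Of the 51 pairs the guide strand was detected on more arrays in 42, both strands on the same number in 5 and the star strand on more in 4. The guides let-7e, miR-106b, miR-151, miR-21, miR-22 and miR-26b were detected on all 60 arrays while their star strands were detected on none. In the 4 pairs led by the star strand, miR-543* was detected on 22 arrays, miR-330* on 10 and miR-296* on 7 while the guide named on the array was detected on none, and miR-872* was detected on 29 arrays against 23 for miR-872. Probes for different miRs differ in sensitivity, so these counts describe the arrays and do not rank the strands.

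**Figure D1:**
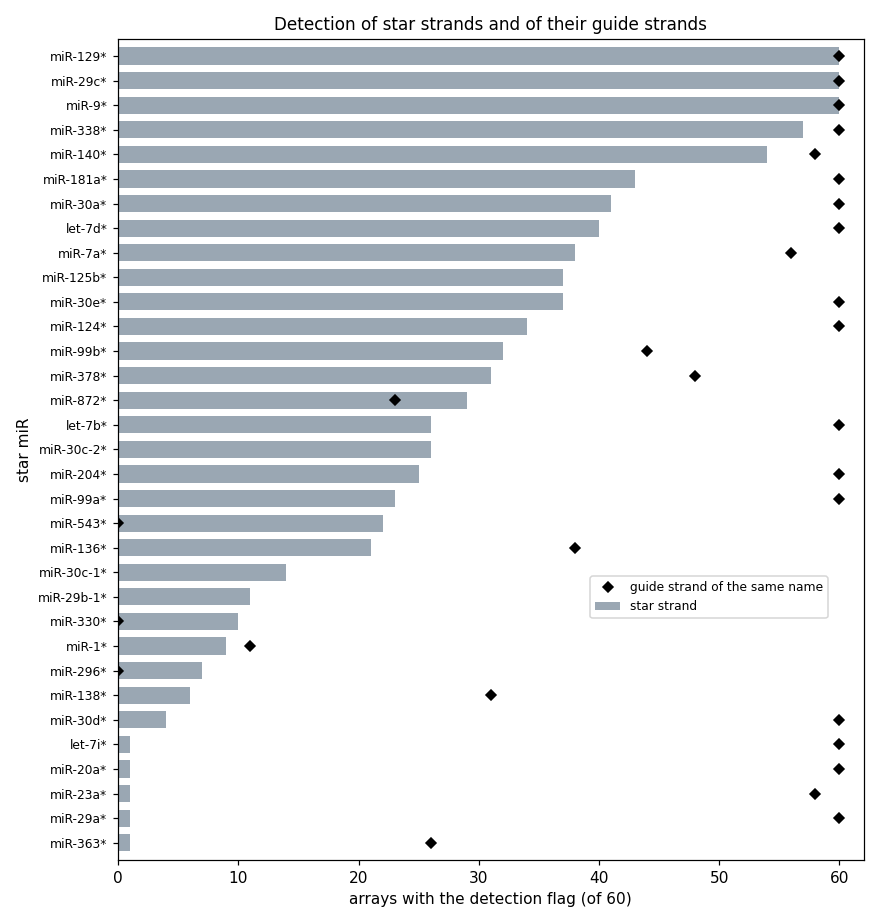
Number of arrays, of 60, on which each of the 33 detected star miRs (bars) and the guide strand of the same name (diamonds) carried the detection flag. Stars without a diamond have no guide of the same name; the diamond lies left of the end of the bar for miR-872*, miR-543*, miR-330* and miR-296*.

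The arm of the hairpin and the base composition were set beside detection as a description. Of the 52 matched star miRs 33 come from the 3′ arm and 19 from the 5′ arm of the hairpin. Among the 29 detected on at least 1 array these numbers were 21 and 8, and among the 23 detected on none they were 12 and 11. The median GC content was 50.0% in both sets, with a range of 27.3% to 66.7% for the detected and of 38.1% to 72.7% for the undetected strands.

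Star miRs encoded close together were compared for detection. In the array annotation 22 star miRs lay in 9 clusters with neighbors less than 50 kb apart. On chromosome 1 miR-99b* was detected on 32 arrays and let-7e*, 180 bases further on, on none. On chromosome 13 miR-29c* was detected on 60 arrays and miR-29b-2*, 533 bases away, on none. The cluster on chromosome 6 held miR-543* with 22 arrays and miR-379*, miR-323*, miR-376a* and miR-382* with 0. Smaller gaps were seen for miR-30e* (37 arrays) and miR-30c-1* (14), 2994 bases apart on chromosome 5, for miR-30a* (41) and miR-30c-2* (26) on chromosome 9, and for miR-125b* (37) and miR-99a* (23) on chromosome 11. Of the other 3 clusters, miR-25* and miR-106b* were both detected on none, miR-24-2* and miR-27a* on none and their neighbor miR-23a* on 1, and miR-29a* and miR-29b-1* on 1 and 11.

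Fewer star miRs were detected in IR than in sham control retinas at 24 h and 7d. At 7d the IR arrays detected 3 to 10 star miRs with a median of 7.5, and the sham control arrays 17 to 29 with a median of 19.5. The groups did not overlap, and the mean difference was -14.5 star miRs per array (exact two-sided permutation test, p = 0.00216, the smallest it can give, adjusted p = 0.0108 over the 5 time points). Within the 3 scans the 7d means were 7.5 against 18, 3.5 against 19 and 10 against 27.5.

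At 24 h the IR arrays detected 5 to 11 (median 8) and the sham control arrays 10 to 29 (median 14), a mean difference of -8.17 (exact permutation test, adjusted p = 0.0325). This difference missed the threshold when IR replicate 2, 3, 4 or 5 or sham control replicate 6 was left out (adjusted p = 0.054 to 0.0758). At 48 h the difference was -7.83 and did not pass (exact permutation test, adjusted p = 0.0758), with 6 to 20 (median 9) in IR and 10 to 25 (median 16.5) in sham control, and it passed without IR replicate 5 or sham control replicate 2 (adjusted p = 0.0216). At 0 h and 2 h the differences were -2 and -0.833 (exact permutation tests, adjusted p = 0.777 and 0.885).

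At 24 h and 7d, where detection was lower in IR, the IR arrays were also dimmer. They were dimmer at 0 h and 48 h too, where the differences of -2 and -7.83 did not pass. At 0 h brightness was 9.34 in IR against 10.40 in sham control, and both groups had a median of 15 detected star miRs. The part of brightness in the detection differences was not tested. The other miRs moved the same way. At 7d 12.1% of the star miRs and 31.2% of the other 292 miRs were detected on an average IR array, against 37.1% and 55.6% on a sham control array. At 2 h, where mean brightness differed by 0.04, the shares were 27.01% and 46.6% in IR and 28.4% and 47.1% in sham control.

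**Figure D2:**
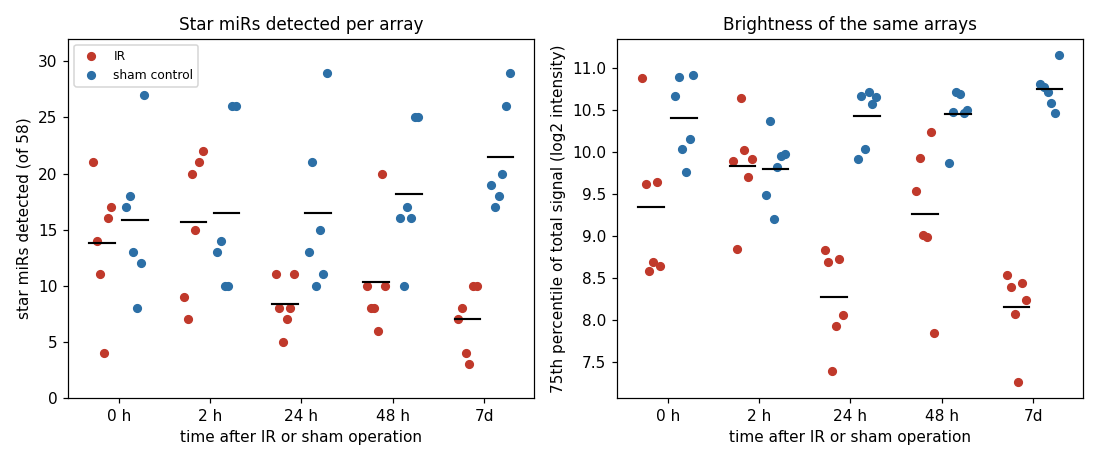
Left, star miRs detected per array (of 58), and right, the brightness of the same arrays (log2 of the 75th percentile of total signal), with 1 point per array and a bar at each group mean. At 7d IR arrays detected 3 to 10 and sham control arrays 17 to 29 star miRs, and all IR arrays were dimmer.

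Differences in level were read from 1 limma fit over all 60 arrays. It covered the 159 miRs for which some group had detection on each of its 6 arrays, 18 of them star miRs. Values are log2 total signals after scaling every array to the same 75th percentile, with a floor of 2.63, and calls required a fold change of 2 or more in either direction together with an adjusted p (Benjamini-Hochberg) no higher than 0.05. Another 15 star miRs were detected on at least 1 array but not tested. A star miR passed this filter only through the group in which it was seen on all arrays.

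Of the 18 tested star miRs, 3 were called higher and 0 lower at 0 h, where 6.29% and 0.629% of all tested miRs were called. At 2 h 1 was called higher and 0 lower (5.03% and 0% of all tested). At 24 h 4 were called higher and 1 lower (11.9% and 6.29%), at 48 h 3 higher and 2 lower (10.1% and 3.77%), and at 7d 2 higher and 4 lower (7.55% and 10.7%). These 20 calls fell on 9 star miRs, let-7d*, miR-378*, miR-99b*, miR-338* and miR-125b* being called higher and miR-30e*, miR-181a*, miR-30a* and miR-136* lower. All 20 differences had the same sign in each of the 3 scans. The scans split the same arrays on which the calls were made, so this agreement is no independent support. Star miRs whose IR arrays lay entirely above or entirely below the sham control arrays numbered 1 and 0 at 0 h (4.4% and 0% of all tested), 0 and 1 at 2 h (2.52% and 0.629%), 4 and 7 at 24 h (17% and 17%), 1 and 3 at 48 h (6.29% and 8.81%) and 2 and 7 at 7d (15.1% and 26.4%).

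Single arrays carried part of these counts. At 0 h the count fell from 3 to 1 without IR replicate 2, 3, 5 or 6 or without sham control replicate 2, and at 2 h from 1 to 0 without IR replicate 3 or 6. With the floor raised to the highest detection limit of any array (log2 6.50), no star miR was called at any time point. Most values of the called star miRs lie under that floor and become equal, so this count does not test their calls. At 24 h the count rose from 5 to 8 without IR replicate 5, and at 48 h it fell from 5 to 3 without IR replicate 6. No difference between the IR effects at 7d and at 24 h passed for a star miR (limma, 0 of 18, against 3.14% of all tested), and 3 had an unadjusted p under 0.05, namely miR-99b* (log2 difference at 7d minus that at 24 h, -1.13), miR-338* (-1.08) and miR-129*.

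**Figure D3:**
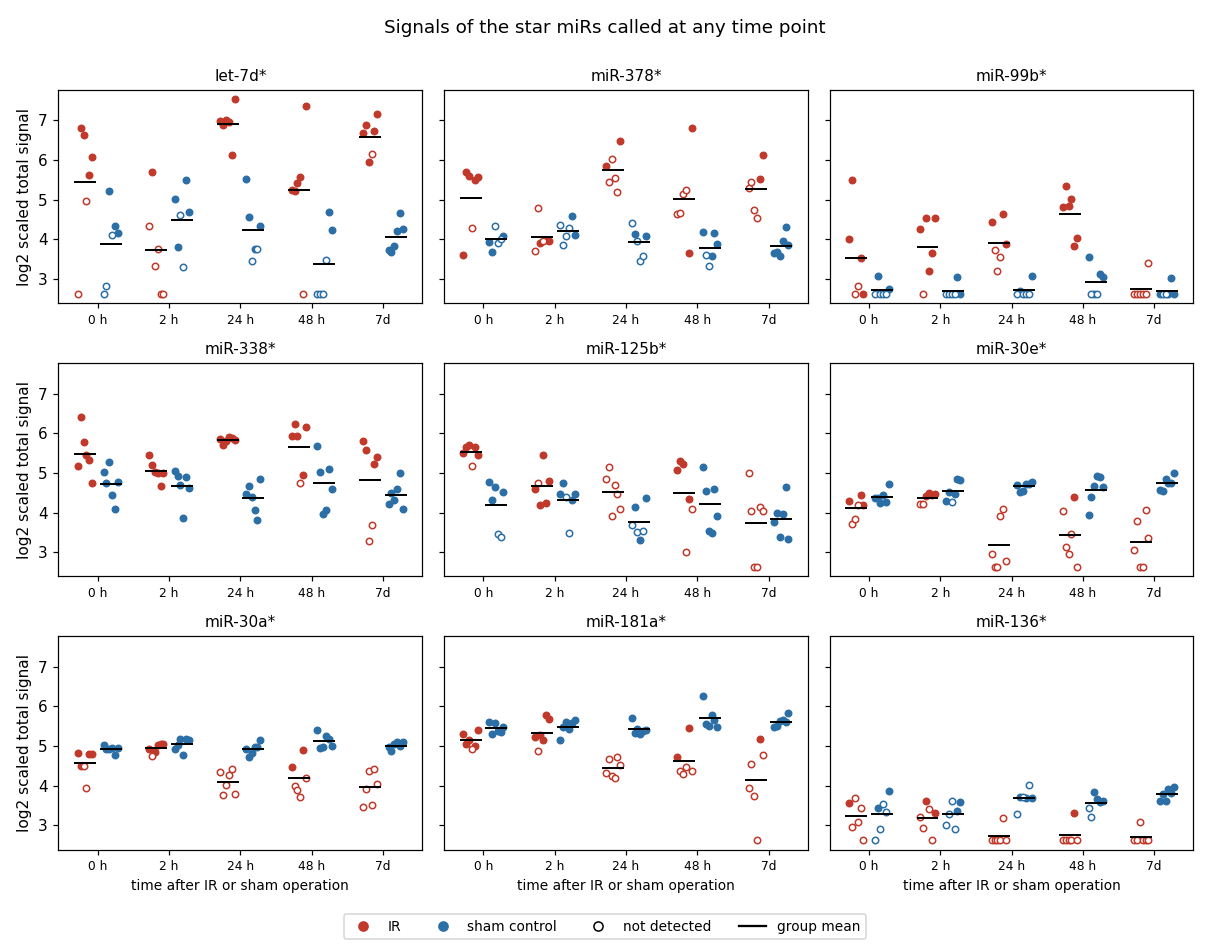
Log2 scaled total signals of the 9 star miRs called at any time point, with 1 point per array, open where the miR was not detected, and a bar at each group mean; the lowest values lie at the floor of 2.63. At 24 h and 7d every IR value of let-7d* and miR-378* lies above every sham control value, while miR-30e*, miR-30a*, miR-181a* and miR-136* are mostly open points in IR at 24 h and later.

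The largest rise among the star miRs was that of let-7d*, the passenger strand of a let-7 miR, a family known for restraining proliferation. At 24 h its log2 signal was 6.13 at the lowest, 6.97 at the median and 7.53 at the highest IR array, and 3.46, 4.05 and 5.53 in sham control, with detection on 6 and 4 arrays. All IR values exceeded all sham control values, the log2 fold change was 2.68 ± 0.55 (SE) and the fold 6.42 (limma, adjusted p = 7.28e-05). At 7d the groups were again apart, at 5.95, 6.70 and 7.15 in IR and 3.68, 4.03 and 4.66 in sham control, with a log2 fold change of 2.53 (limma, adjusted p = 0.000135).

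At 0 h and 48 h let-7d* was called as well, at 1.58 and 1.86 (limma, adjusted p = 0.0494 and 0.00437), but the groups overlapped. Values of IR ran from 2.63 to 6.81 at 0 h and from 2.63 to 7.37 at 48 h. At 2 h the log2 difference was -0.75 and not called (limma, adjusted p = 0.62). The guide let-7d, detected on all 60 arrays, differed by 0.08, 0.02, -0.01, -0.10 and -0.06 from 0 h to 7d, none of which passed (limma, adjusted p at least 0.248).

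The pattern of miR-378* was similar in time. Its guide miR-378 lies within the gene of the coactivator Ppargc1b and is known from metabolic tissues. At 24 h IR values were 5.19, 5.69 and 6.47 (lowest, median, highest) and sham control values 3.45, 4.03 and 4.40, with detection on 2 arrays in each group, so most of these values carried no detection flag. The groups did not overlap, and the log2 fold change was 1.82 (limma, adjusted p = 3.16e-06). At 7d the values were 4.54, 5.36 and 6.13 in IR, where 2 arrays detected it, and 3.58, 3.78 and 4.31 in sham control, where 6 did, a log2 fold change of 1.43 (limma, adjusted p = 0.0001).

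It was also called at 0 h (1.05, limma, adjusted p = 0.0127) and at 48 h (1.23, limma, adjusted p = 0.00074), where its groups overlapped. The guide miR-378, detected on 2 IR arrays at each of 24 h and 7d, differed by -0.50 at 24 h (limma, adjusted p = 0.0321) and by -0.23 at 7d (limma, adjusted p = 0.333), and was not called.

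The passenger strand miR-99b* was called at 2 h, 24 h and 48 h. Its guide miR-99b is encoded together with let-7e and miR-125a. IR 48 h was the only group that detected miR-99b* on all 6 arrays. It entered the fit through that group, so its 48 h p-value is not independent of the filter. At 48 h IR values were 3.84, 4.82 and 5.34 with detection on all 6 arrays. Sham control values were 2.63, 2.85 and 3.55 with detection on 4 arrays and 3 arrays at the floor. IR lay above sham control throughout, the log2 fold change was 1.71 and the fold 3.27 (limma, adjusted p = 7.61e-06).

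At 2 h the log2 difference was 1.11 ± 0.30 (SE) (limma, adjusted p = 0.00831), with IR values of 2.63, 3.97 and 4.55 against 2.63, 2.63 and 3.04, and at 24 h it differed by 1.20 (limma, adjusted p = 0.000847), with 3.20, 3.81 and 4.65 against 2.63, 2.63 and 3.09. At 2 h the groups overlapped and at 24 h they did not. Detection was on 5 IR and 2 sham control arrays at 2 h, and on 3 IR and 2 sham control arrays at 24 h. Of the sham control arrays, 5 lay at the floor at 2 h and 4 at 24 h. At 7d miR-99b* was detected on no IR array. The guide miR-99b had fitted log2 differences of -0.83 at 24 h, -0.71 at 48 h and -0.81 at 7d (limma, adjusted p = 0.00962, 0.0302 and 0.0108) and was not called. It was detected on 0, 3 and 2 IR arrays at these times and on 6 sham control arrays each, and at 24 h it was at least 1.15-fold lower in IR. Its seed partner miR-99a* was detected on 23 arrays and not on all 6 of any group, so it was not tested.

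Of the 20 calls only that of miR-338* at 24 h rested on detection on all 12 arrays compared. miR-338, the guide, lies in an intron of the kinase gene Aatk and is known from oligodendrocytes. IR values were 5.71, 5.84 and 5.91 and sham control values 3.81, 4.43 and 4.84, a log2 fold change of 1.46 ± 0.31 (SE) and a fold of 2.75 (limma, adjusted p = 0.0001015). The 6 IR arrays lay close together and above all sham control arrays. With slide as a term of the fit the 24 h difference was 0.43 and was not called (limma, adjusted p = 0.427). At 48 h the difference was 0.92 (limma, adjusted p = 0.0116), below the fold change threshold, and at 0 h, 2 h and 7d it was 0.76, 0.38 and 0.38, none passing (limma, adjusted p = 0.106, 0.665 and 0.29).

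At 0 h alone a call was made for miR-125b*, a passenger strand of miR-125b, the vertebrate relative of the worm miR lin-4. IR values were 5.17, 5.58 and 5.71 and sham control values 3.37, 4.41 and 4.77, with detection on 5 and 4 arrays. No IR array reached down to sham control, and the log2 fold change was 1.34 ± 0.34 (SE), a fold of 2.54 (limma, adjusted p = 0.00325). It was detected on no IR array at 24 h or 7d.

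These rises were measured after scaling, and unscaled signals gave a different picture for some of them. Unscaled, IR minus sham control in log2 was 0.53 for let-7d* at 24 h and -0.06 at 7d, and -0.34 and -1.02 for miR-378* at these times. It was -0.69 for miR-338* at 24 h and 0.28 for miR-125b* at 0 h. For miR-99b* it was 1.13 at 2 h, -0.10 at 24 h and 0.89 at 48 h. Over the 57 miRs detected on all arrays, the median unscaled difference was -1.02 at 0 h, 0.04 at 2 h, -2.16 at 24 h, -1.29 at 48 h and -2.68 at 7d. With brightness as a covariate, miR-99b* was called higher at all 5 time points (with no IR detection at 7d), miR-125b* at 0 h and 24 h (with none at 24 h) and miR-338* at 24 h, and neither let-7d* nor miR-378* nor any star miR called lower was called.

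With slide as a term of the fit, treatments are set against each other only through groups that share slides across time points. The star miRs called then numbered 0 at 0 h and 2 h, 5 at 24 h, 4 at 48 h and 4 at 7d. Among the strands called higher, let-7d* was still called at 24 h and 7d, miR-378* at 24 h and miR-99b* at 48 h. The call of let-7d* was lost at 0 h and 48 h, that of miR-378* at 0 h, 48 h and 7d, that of miR-99b* at 2 h and 24 h, that of miR-125b* at 0 h and that of miR-338* at 24 h (limma, adjusted p from 0.0669 to 0.427). Of the strands called lower, miR-30e*, miR-30a* and miR-181a* were called at 24 h, 48 h and 7d, and miR-136* was not called at 7d, where its log2 difference was -0.75 (limma, adjusted p = 0.0154).

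The 4 star miRs called lower were detected on 0 or 1 IR arrays at 7d and on all 6 sham control arrays. Only sham control groups detected any of these 4 on all 6 arrays. They entered the fit through those groups, so the p-values given for them are not independent of the filter. One of them, miR-30e* of the miR-30 family, was called at 24 h, 48 h and 7d. At 7d its IR values were 2.63, 3.20 and 4.07 with detection on no array, and its sham control values 4.54, 4.75 and 4.99 with detection on 6. The groups did not overlap. The fitted log2 differences were -1.49 ± 0.23 (SE) at 24 h, -1.14 at 48 h and -1.49 at 7d (limma, adjusted p = 4.26e-07, 4.08e-05 and 3.51e-07). As no IR array detected it at 24 h or 7d, the IR level there has only an upper bound, and this bound was not below the sham control level. The guide miR-30e was detected on all 60 arrays and was lower in IR by 0.22, 0.25 and 0.38 in log2 at these times (limma, adjusted p = 0.00686, 0.00255 and 1.03e-05).

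Another miR-30 passenger strand, miR-30a*, was called at 7d. Its IR values were 3.47, 3.98 and 4.43 with no detection and its sham control values 4.86, 5.02 and 5.11 with 6, and the groups did not overlap (fitted log2 difference -1.06 ± 0.15 SE, limma, adjusted p = 1.04e-07). The IR level at 7d has only an upper bound, which was not below the sham control level. Without IR replicate 1 or 4 the difference was -0.96 and -0.97 and the call was lost. At 24 h and 48 h it differed by -0.84 and -0.92, and at 24 h, with no IR detection, it was at least 1.14-fold lower in IR. miR-30a differed by -0.28 at 7d (limma, adjusted p = 0.0033).

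The passenger strand of miR-181a, a miR known from lymphocytes, was called at 48 h and 7d. At 7d miR-181a* had IR values of 2.63, 4.25 and 5.18 with 1 detection and sham control values of 5.49, 5.61 and 5.83 with 6, without overlap (log2 difference -1.48, limma, adjusted p = 1.04e-07). At 48 h the difference was -1.09 ± 0.21 (SE) (limma, adjusted p = 2.74e-05), with detection on 2 IR arrays. Without sham control replicate 1 it was -0.98 and not called. At 24 h the difference was -0.98, and with no IR array detecting it miR-181a* was at least 1.45-fold lower in IR. The guide miR-181a was detected on all 60 arrays and was lower in IR by 0.30 at 24 h, 0.66 at 48 h and 0.46 at 7d in log2 (limma, adjusted p = 0.0272, 9.56e-06 and 0.000908).

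At 7d a call was made for miR-136*, whose gene lies in the imprinted Dlk1-Dio3 region. Sham control 7d was the only group that detected it on all 6 arrays, and it entered the fit through that group. Its IR values were 2.63, 2.63 and 3.09, with 5 arrays at the floor and none detecting it, and its sham control values 3.61, 3.81 and 3.96 with detection on 6. The groups did not overlap and the fitted log2 difference was -1.07 ± 0.17 (SE) (limma, adjusted p = 5.34e-07), with no bound on the fold. The guide miR-136, also detected on no IR array at 7d, differed by -0.43 (limma, adjusted p = 0.0942). With a normexp background correction in place of the deposited one, the 7d differences of all 4 star miRs called lower were positive, at 1.37 for miR-30e*, 1.3002 for miR-30a*, 1.05 for miR-181a* and 1.57 for miR-136*. This correction also added an offset of 50 to every signal before the arrays were scaled. It therefore does not vary the background alone, and the part of the offset was not tested.

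Among the 15 tested star miRs whose guide was tested too, no guide was called at any time point, the guide log2 fold changes lying between -0.83 and 0.43. The star was called in 2, 1, 5, 5 and 6 of these pairs from 0 h to 7d. Of all 159 tested miRs 10, 8, 19, 16 and 12 were called higher and 1, 0, 10, 6 and 17 lower at these times. In each of these pairs the guide was detected on as many arrays as its star or on more, so these counts do not rank the strands.

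**Figure D4:**
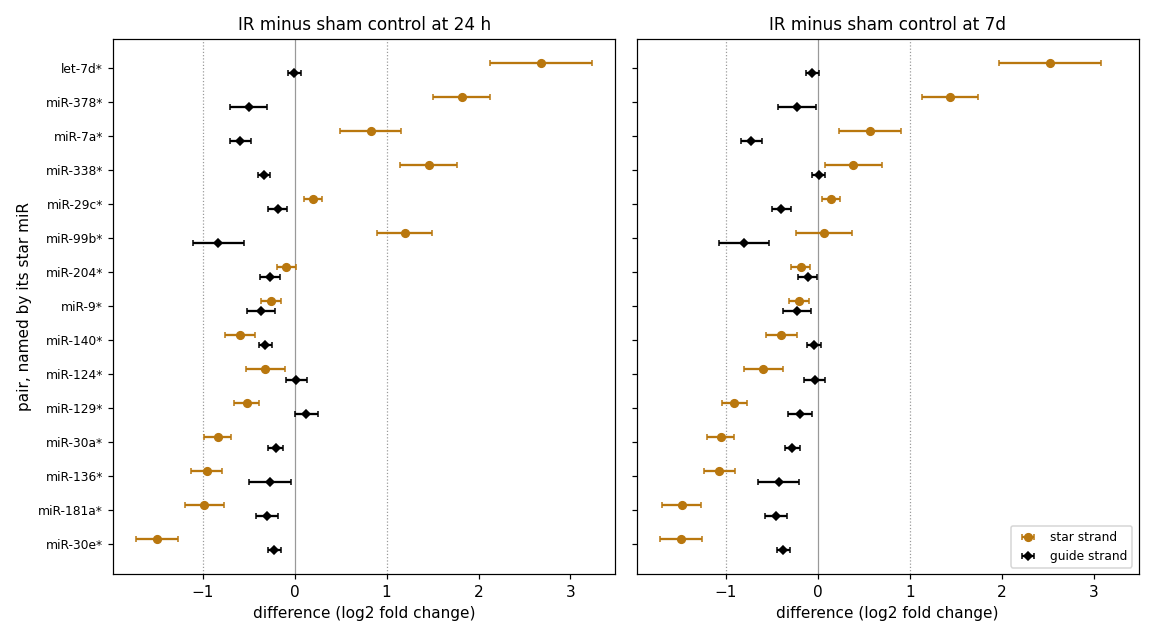
Log2 fold change (IR minus sham control, ± SE from the limma fit) of star (circles) and guide (diamonds) strands of the 15 pairs with both strands tested, at 24 h and 7d; dotted lines mark a fold change of 2. let-7d* lies at 2.68 and 2.53 while let-7d lies at -0.01 and -0.06.

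The 3 star miRs detected on every array were miR-9*, miR-29c* and miR-129*. miR-9*, from a precursor family of neural tissue, lay between 8.74 and 9.76 on all arrays and differed by 0.02, -0.03, -0.26, -0.13 and -0.21, of which only the value at 24 h passed without the fold change threshold (limma, adjusted p = 0.0432). miR-29c*, whose guide belongs to a family known for targeting collagen mRNAs, differed by 0.13, -0.06, 0.20, 0.01 and 0.14 and passed at no time point (limma, adjusted p = 0.0664 at 24 h).

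The level of miR-129* was lower in IR from 24 h on. At 7d its IR values were 7.44, 7.65 and 8.07 and its sham control values 8.37, 8.59 and 9.02. The groups did not overlap at 24 h, 48 h or 7d, and the log2 differences were -0.52, -0.71 and -0.91 ± 0.14 (SE) (limma, adjusted p = 0.00112, 1.98e-05 and 1.72e-07), below the fold change for a call.

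For miR-140*, from a gene first known from cartilage, the differences were -0.59, -0.66 and -0.40 at 24 h, 48 h and 7d (limma, adjusted p = 0.00217, 0.000727 and 0.0337), the last of which was 1.13 with normexp. Without the fold change threshold 3 star miRs were higher and 0 lower at 0 h (10.7% and 1.89% of all tested), 1 and 0 at 2 h (7.55% and 0%), 6 and 9 at 24 h (24.5% and 35.8%, or 60.4% in both directions), 4 and 9 at 48 h (19.5% and 35.2%, or 54.7%) and 2 and 9 at 7d (20.1% and 39.6%, or 59.7%). Such small differences are open to any shift in the scaling between arrays.

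The other tested star miRs were not called at any time point. Among them miR-543*, of the chromosome 6 cluster, lay between 3.22 and 3.56 in sham control and at the floor on all 6 IR arrays at 7d (log2 difference -0.75, limma, adjusted p = 9.19e-06), with no IR array detecting it. miR-124*, whose guide is a well known neuronal miR, lay at the floor on all IR arrays at 24 h, 48 h and 7d, where 0, 1 and 0 of them detected it, with differences of -0.32, -0.74 and -0.59 (limma, adjusted p = 0.182, 0.00296 and 0.0131). miR-30c-2*, also detected on 0, 1 and 0 IR arrays, differed by -0.45, -0.65 and -0.56 (limma, adjusted p = 0.0351, 0.00276 and 0.009), and miR-7a* by 0.83 at 24 h (limma, adjusted p = 0.0309). Sham control 7d was the only group that detected miR-543*, miR-124*, miR-30c-2* or miR-7a* on all 6 arrays. They entered the fit through that group, so the 7d p-values given here are not independent of the filter.

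A single scale factor per array cancels in the difference between star and guide on the same array, whereas quantile normalization and background correction can change it. It was compared for 5 pairs, at the time points where both strands were detected on all 12 arrays, which made 20 comparisons, and the p-values were adjusted over all 20. With 6 against 6 arrays the smallest exact permutation p is 0.00216. Of the 20 comparisons 8 passed, 4 with the star lower and 4 with the star higher relative to its guide in IR. By time point these were 0 of 4 pairs at 0 h (1 at an unadjusted p under 0.05), 1 of 5 at 2 h, 3 of 4 at 24 h, 2 of 4 at 48 h and 2 of 3 at 7d.

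The largest was that of miR-338* at 24 h. The star minus guide value ran from -1.71 to -1.54 on the IR arrays and from -4.03 to -2.89 on the sham control arrays. All 6 IR arrays lay above all sham control arrays, and the difference was 1.79 ± 0.17 (SE, exact permutation test, adjusted p = 0.00866), or 1.69, 2.06 and 1.19 within the 3 scans. The guide miR-338 itself was lower in IR by 0.33 in log2 (limma, adjusted p = 4.57e-05). At 0 h the difference was 0.72 and did not pass (exact permutation test, adjusted p = 0.101), and at 2 h it was 0.33. At 48 h and 7d miR-338* was not detected on all arrays.

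For miR-29c* the strands separated at 24 h and 7d. At 7d star minus guide ran from -3.97 to -3.88 in IR and from -4.66 to -4.32 in sham control, without overlap, a difference of 0.54 ± 0.05 (SE, exact permutation test, adjusted p = 0.00866). The difference was 0.39 at 24 h, again without overlap, and 0.24 at 48 h with overlap (exact permutation tests, adjusted p = 0.00866 and 0.0216). At 0 h and 2 h it was 0.04 and -0.06. Under quantile normalization the differences from 24 h to 7d were 0.0831, -0.0344 and 0.24, none of which passed (exact permutation tests, adjusted p = 0.438, 0.804 and 0.124).

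For miR-129* the difference had the opposite sign. At 7d star minus guide ran from -1.09 to -0.61 in IR and from -0.30 to 0.51 in sham control, and the difference was -0.72 ± 0.14 (SE, exact permutation test, adjusted p = 0.00866). At 24 h it was -0.65 (exact permutation test, adjusted p = 0.0216) and the groups overlapped. At 48 h it was -0.42 and did not pass (exact permutation test, adjusted p = 0.113). With normexp it was -0.12 at both 24 h and 7d, and neither passed (exact permutation tests, adjusted p = 0.249 each).

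The pair of miR-140 differed already at 2 h. Mean brightness differed by 0.04 there, its part in the difference was not tested, and no slide held both treatments. Star minus guide ran from -0.61 to -0.40 in IR and from -0.32 to -0.13 in sham control, a difference of -0.28 ± 0.05 (SE, exact permutation test, adjusted p = 0.00866). At 48 h it was -0.45 (exact permutation test, adjusted p = 0.0216), and -0.27 without sham control replicate 1, an array on which miR-140* stood at 6.79. With normexp the difference was -0.0715 at 2 h and -0.000485 at 48 h, and neither passed (exact permutation tests, adjusted p = 0.2498 and 1). Neither passed with the floor raised to the highest detection limit (log2 6.50). At 2 h this floor lies above miR-140* on every array, and at 48 h on every array but sham control replicate 1. It therefore cannot test this pair. The count of 2 pairs at 48 h fell to 1 without IR replicate 4 or 6 or sham control replicate 3 or 6. For miR-9* the 5 differences lay between -0.03 and 0.11 and none passed.

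**Figure D5:**
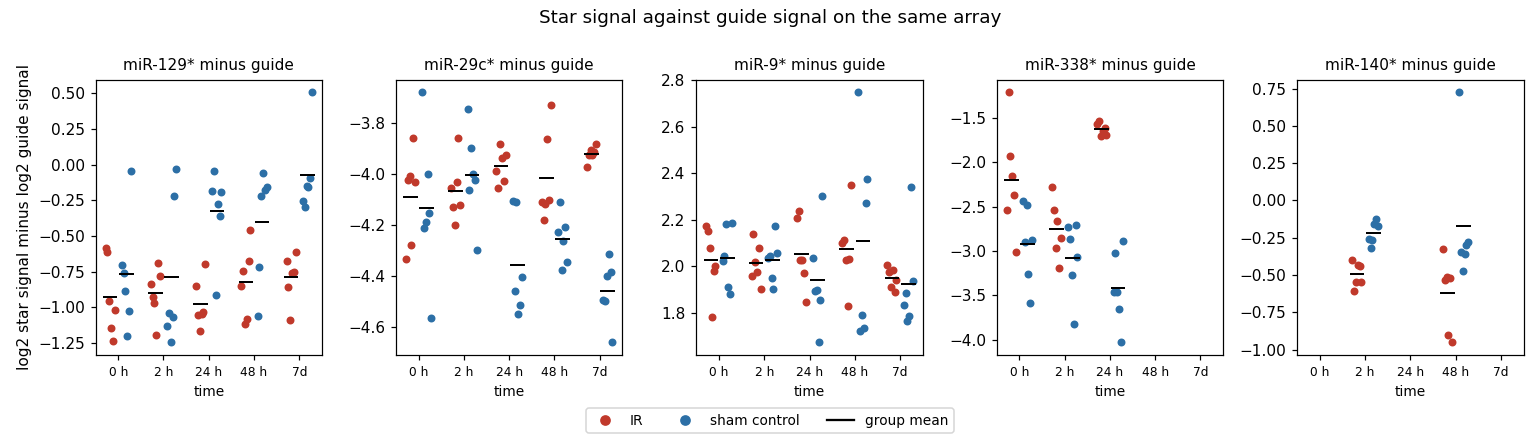
Log2 star signal minus log2 guide signal on each array for the 5 pairs, at the time points where both strands were detected on all 12 arrays, with a bar at each group mean. The values of miR-338* at 24 h lie between -1.71 and -1.54 in IR, above all sham control arrays, and those of miR-129* at 7d below them.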

How the data were processed

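Labeled RNA was measured on Agilent arrays of rat miRs, and per the file headers the authors extracted each spot's intensity with Feature Extraction, which subtracted background and sums the probes of a miR to a total signal with a detection flag. A deposited table of log2 values, scaled by the authors to the 75% quantile with GeneSpring GX, served as an alternative only. All 60 arrays were used, grouped by their labels. The labels do not give litters or days of operation, so p-values measure the spread between these rats.

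Every array was scaled by the 75th percentile of 57 miRs, those that all 60 arrays detected. Lower values were set to a floor of 6.20 (log2 2.63), which is the array median of the lowest positive signal with a detection flag, before log2 was taken. The 159 miRs with detection on each of the 6 arrays in 1 group or more entered 1 limma 3.58.1 fit (R 4.3.3) of 10 group means, with Benjamini-Hochberg adjustment over the 159. The fit was tested on simulated data. Star minus guide differences and detected star miRs per array were compared by exact two-sided permutation tests. The number of arrays limits the precision. Other steps used Python 3.11.15 with pandas 2.3.3, numpy 2.4.6 and matplotlib 3.10.9.

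Where no array of a group detected a miR, its bound was averaged over the arrays, taking for each its own signal or the array's lowest detected signal, whichever was higher. Star miRs were matched to RefSeq by the spacing of both strands in the hairpin (45, within 1 base), their order (2) or the locus number in the name (5). Probe positions are the array annotation's, on rn4.

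The star miRs and marker lists were chosen with earlier results of these data known. Named star miRs were those called, those detected on all arrays, those in a compared pair, their guides and their seed partners. Others were named with the detection counts and clusters, or after their values were seen. Alternatives covered the signal, background correction, normalization, floor, filter, arrays in the fit, replicate, slide and scan as blocks, brightness as a covariate, a permutation test per miR, the authors' table and leaving out each array.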

Additional observations from a re-analysis of the deposited data

Results flagged for a closer look

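In 66 groups of 6 arrays with detected star miRs, 4 held an array far from the other 5, and chance flags about 1 in 20 groups. The log2 signal of miR-140* was 6.79 on sham control 48 h replicate 1, the highest of its group. The log2 signal of miR-338* was 3.87 on sham control 2 h replicate 4, the lowest of its group. The log2 signal of miR-9* was 9.18 on IR 2 h replicate 1, the lowest of its group, and that of miR-181a* was 5.71 on sham control 24 h replicate 1, the highest of its group.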

How the results depend on the processing

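In order from 0 h to 7d, 3, 1, 5, 5 and 6 star miRs were called. Most counts moved with the signal, the normalization, the floor or the filter. The mean of log2 processed signals gave 0 at 2 h, 8 at 24 h (5 higher, 3 lower) and 10 at 48 h (4 and 6). Normexp, with an offset of 50 added before scaling, gave 10, 0, 11, 11 and 15, all higher, and no normalization gave 6, 0, 10, 12 and 15, all lower. Scaling to the 75th percentile over all miRs gave 8 at 24 h (4 and 4), and quantile normalization 1 at 0 h, 8 at 24 h (4 and 4) and 8 at 48 h (2 and 6). A floor of 1 signal unit gave 0 at 2 h, 10 at 24 h (4 and 6), 10 at 48 h (3 and 7) and 11 at 7d (2 and 9), and 1 star miR for 7d against 24 h. The highest detection limit as floor (log2 6.50) gave 0 at every time point, as did testing only miRs detected on all 60 arrays. That floor lies above most values of the 9 called star miRs, and that filter leaves all 9 out, so neither count tests their calls. Testing miRs detected on at least 1 array gave 5 at 0 h, 10 at 24 h (9 and 1) and 11 at 7d (7 and 4). The 12 arrays of the time point alone gave 1 at 0 h, slide as a block 0 at 0 h and 2 h, brightness as a covariate 3, 1 and 1 from 24 h on (all higher), the exact permutation test per miR 1 at 0 h and 0 at 2 h, and the values normalized by the authors 15 at 24 h (8 and 7), 12 at 48 h (4 and 8) and 15 at 7d (6 and 9). The cause of these changes was not tested.

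Under normexp the sign turned for miR-30e* at 24 h (0.95), 48 h (0.99) and 7d (1.37), miR-181a* at 48 h (0.73) and 7d (1.05), and miR-136* (1.57), miR-140* (1.13) and miR-30a* (1.3002) at 7d. Without normalization it turned for miR-378* at 0 h (-0.0116), 24 h (-0.34) and 7d (-1.02), miR-9* at 0 h (-1.04), miR-29c* at 24 h (-1.95), 48 h (-1.18) and 7d (-2.44), miR-338* at 24 h (-0.69) and 7d (-1.72), miR-99b* at 24 h (-0.10) and let-7d* at 7d (-0.0553). These lists hold only values called in the main fit or under the alternative. Other values turned without normalization too, among them miR-338* at 0 h (-0.30) and 48 h (-0.28) and miR-29c* at 0 h (-0.94). Star minus guide turned for miR-9* under normexp at 24 h (-0.50) and 7d (-0.59) and for miR-29c* under quantile normalization at 48 h (-0.0344).

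From 0 h to 7d, 0, 1, 3, 2 and 2 pairs differed. Processed signals gave 1 at 0 h and 1 at 48 h, normexp 3 at 0 h and 0 at 2 h, quantile normalization 1 at 48 h and 1 at 7d, the highest detection limit as floor 0 at 2 h and 1 at 48 h, and values within scans 0 at 48 h. That floor lies above nearly all compared values of miR-140* and cannot test its pair. A count of pairs does not say which pairs, and with normexp those of miR-129* at 24 h and 7d and of miR-140* at 48 h no longer passed while that of miR-9* did. For detection at 24 h, a signal above 3 times its error gave -6.67 (adjusted p = 0.157), and within scans the difference of -7.83 at 48 h passed (adjusted p = 0.0309).

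Leaving out 1 array gave 1 to 3, 0 to 1, 5 to 8, 3 to 7 and 5 to 6 called star miRs, 0 to 0 for 7d against 24 h, 0 to 1, 1 to 1, 3 to 3, 1 to 2 and 2 to 3 pairs, and detection differences of -3.57 to 0.23, -2.13 to 1.07, -9.47 to -5.67, -9.77 to -6.47 and -15.4 to -13. One pair differed at 0 h without IR replicate 6.

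The replicate numbers of IR and sham control arrays were not shown to pair them: correlations of same-numbered deviations lay between -0.45 and 0.60, and an array correlated best with its own number in 3, 2, 1, 1 and 0 of 6 cases. With the replicate block limma called 2, 1, 5, 5 and 6 star miRs. With pairing by number, the exact sign-flip test passed 0 pairs at every time point and neither the detection difference of -8.17 at 24 h nor that of -14.5 at 7d (adjusted p = 0.0521 each). The smallest p this test can give with 6 pairs is 0.03125, so at least 13 of the 20 pair comparisons or 4 of the 5 detection differences would have had to reach it for any to pass, and these results say nothing about stability.

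Of 730 values for single star miRs under these alternatives 587 kept their side of the threshold. These include values called under neither setting, some of which changed sign, as miR-338* at 0 h did without normalization (-0.30). Detection limits what can be said, since most star miRs lie near background and IR arrays were dimmer.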
